A study of Mus musculus with 15 samples.

Results

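Olfactory ensheathing glia are the glia that wrap the axons of olfactory sensory neurons along the olfactory nerve and in the outer nerve layer of the olfactory bulb. The expression of 6 genes used as their markers, Ngfr, Erbb3, Frzb, Sox10, Fabp7 and S100b, was followed in RNA of the whole bulb of 15 male mice. The probes of these genes were found by the gene name that the scanner files print, with no measured value in that step. The genes themselves were chosen with earlier results of these data known. Each gene had 1 probe, so that 6 of 55681 probes and 6 of 27337 genes tested are described. The study asked how gene expression in the bulb differs when signalling by corticotropin-releasing hormone (CRH) through its receptor CRHR1 is low, near normal or high.

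Each of 3 groups held 5 mice aged 6 to 8 weeks, each with 500 nL of an adeno-associated virus (AAV) injected 2 weeks before the RNA was taken and each measured on 1 array. The knockout group was CRHR1-/- of strain 129S4/SvJae with AAV-flex-EGFP, a virus whose green fluorescent protein is made only where Cre recombinase is present. The Cre GFP group was CRHR1-Cre of strain C57Bl/6 with the same kind of virus, and the labels treat it as nearly wild type. The active CRHR1 group was CRHR1-Cre, C57Bl/6, with AAV-flex-(CA)CRHR1, which carries a constitutively active form of the receptor for cells that make Cre. Per the labels these are CRHR1-positive granule cells, the inhibitory interneurons of the bulb, and no glial cell is named as a target. The titles name Cre only for the Cre GFP and active CRHR1 groups, so that the effects of strain, of Cre and of receptor loss cannot be told apart where the knockout group is compared.

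Ensheathing glia arise from the neural crest and support the growth of olfactory axons into the bulb, which goes on throughout life as sensory neurons are replaced. Sox10 is the transcription factor that specifies crest-derived glia and the oligodendrocyte lineage. Neuregulin signals to these glia through ERBB3, and neurotrophins bind their receptor p75, the product of Ngfr. Frzb codes for a secreted protein that holds Wnt ligands away from their receptors. Fabp7 codes for the brain fatty acid binding protein and S100b for a calcium-binding protein, and astrocytes make both too. Sox10 and Erbb3 are also made by oligodendrocytes and their precursors, so that the 6 genes mark ensheathing glia together and not each alone.

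Each result below is read by a probe of 60 bases, and the first 30 bases of each, from its 5′ end, are given to show which stretch of each transcript was measured. Positions refer to mm9, the build that the scanner files use, and no annotation of that build was used here to say in which exon or untranslated region a probe lies. The Ngfr probe lies on the minus strand of chromosome 11 (chr11:95430211-95430270), the Erbb3 probe on the minus strand of chromosome 10 (chr10:128006424-128006483) and the Frzb probe on the minus strand of chromosome 2 (chr2:80252582-80252641). The Sox10 probe lies on the minus strand of chromosome 15 (chr15:78985518-78985577). The Fabp7 probe (chr10:57508039-57508098) and the S100b probe (chr10:75723783-75723842) both lie on the plus strand of chromosome 10.
Ngfr: tccagctggcgactatgagatccagacctc
Erbb3: gacaaccccgattactggcatagcaggctt
Frzb: gtgcaccagggtgttatttaacagaggtat
Sox10: tacagtctacctttgccttgcaccctttgc
Fabp7: tgaagcactggtcactaattataagtttgt
S100b: gaagctggacttgaggctttctaacttgca
The Ngfr probe was spotted 10 times on each array, and its spots differed with an SD between 0.039 and 0.096 on the log2 scale. The other probes had 1 spot each. All 6 probes were well above background on all 15 arrays, so that each change below is measured on both sides.

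The arrays were alike in quality. Their 75th percentile of signal ran from 663 to 1172, 59.9% to 67.8% of the spots were well above background, and arrays of a group correlated with each other at 0.985 to 0.992 on average. Crhr1 itself, the targeted gene, was lower by 0.47 ± 0.09 in the knockout than in Cre GFP bulbs (adjusted p = 0.0146). With active CRHR1 it stood 0.09 ± 0.09 from Cre GFP bulbs (adjusted p = 0.543). The sources used here do not say whether its probes lie within the deleted part or within the viral construct, so these values check the labels only in part. The 5 knockout arrays shared slide 1 with the Cre GFP arrays 1 to 3, while Cre GFP arrays 4 and 5 were on slide 2 beside the 5 active CRHR1 arrays.

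Each of the 6 genes had its highest mean in the knockout, and 4 of them, Ngfr, Frzb, Fabp7 and S100b, had their lowest mean with active CRHR1. A level is the log2 signal less that array's 75th percentile (mean ± SD, n = 5), and changes are differences of these means ± SE with the adjusted p of limma, called when under 0.05. Against Cre GFP bulbs all 6 means were higher in the knockout (median change 0.27, against 0.0049 over all genes). In that comparison 2 of 6, Ngfr and Sox10, passed the threshold, where 3.35% of all genes did in either direction, 1.97% higher and 1.39% lower. Against Cre GFP bulbs 4 of 6 means were lower with active CRHR1 (median -0.22, against -0.065 over all genes), and 0 of 6 passed in limma, where 8.49% of all genes did (3.91% higher, 4.58% lower). At an unadjusted p under 0.05 that number was 2, Frzb and Fabp7. Between the groups at the 2 ends, 5 of 6 were lower with active CRHR1 than in the knockout, all but Erbb3 (median -0.41, against -0.068), where 25.6% of all genes passed, 16.2% lower and 9.38% higher. These 3 comparisons share arrays, and their values are set side by side, not counted as support for each other. In RNA of a whole bulb, fewer cells of a type and less RNA per cell cannot be told apart.

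**Figure D1:**
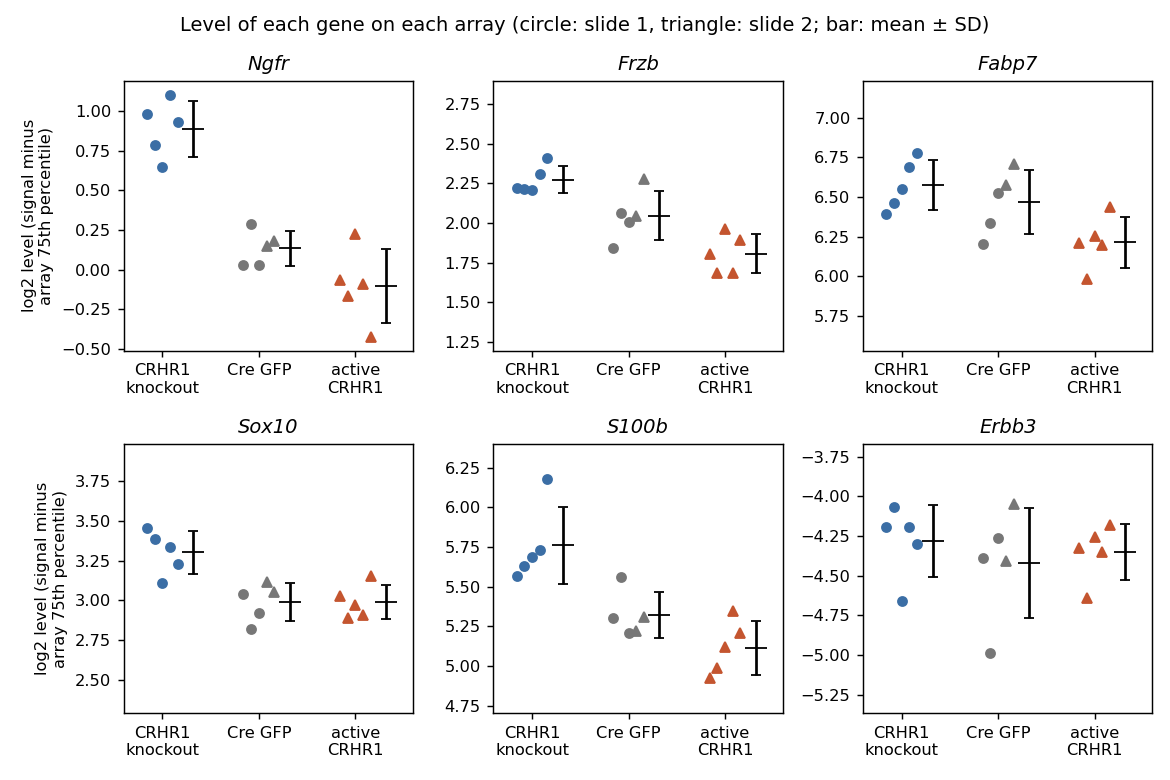
Level of each of the 6 genes on each of the 15 arrays (y axis, log2 signal minus the array's 75th percentile; x axis, group), with circles for slide 1, triangles for slide 2 and a bar for the mean ± SD of 5 mice. The 5 knockout arrays lie above all other arrays for Ngfr and S100b, while the Erbb3 groups lie over each other.

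Ngfr, the neurotrophin receptor p75, had the largest change of the 6 genes in both comparisons with the knockout. In the knockout its level was 0.98, 0.78, 0.65, 1.10 and 0.93 on arrays 1 to 5. In Cre GFP bulbs it was 0.031, 0.29, 0.029, 0.15 and 0.18. With active CRHR1 it was -0.064, -0.17, 0.22, -0.088 and -0.42. The lowest knockout array, at 0.65, thus lay above the highest of the other 10 arrays, at 0.29, while the Cre GFP and active CRHR1 arrays overlapped. Means were 0.89 ± 0.18, 0.14 ± 0.11 and -0.10 ± 0.23 in the same order.

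Ngfr was therefore 1.69-fold as high in the knockout as in Cre GFP bulbs (log2 change 0.75 ± 0.11, 95% confidence interval 0.51 to 0.99, adjusted p = 0.0033). By p-value it was the gene at rank 78 of 27337. Among slide 1 arrays alone the change was 0.77 and the adjusted p 0.0529. With active CRHR1 Ngfr was 0.503-fold its knockout level (log2 change -0.99 ± 0.11, interval -1.23 to -0.75, adjusted p = 0.000182). Against Cre GFP bulbs the change of -0.24 ± 0.11 did not pass (interval -0.48 to 0.00087, adjusted p = 0.186). Ngfr and Crhr1 lie on the same chromosome, with 8.606 Mb between their probes. Whatever the distance, the effects of strain, of Cre and of receptor loss cannot be told apart here. This holds for every gene where the knockout is compared.

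Erbb3, the neuregulin receptor of glia that signals as a partner of ERBB2, was the member with no change in any comparison that passed. Its probe was dim, with a mean pixel signal between 63 and 98 over the 15 arrays. Levels ran from -4.66 to -4.06 in the knockout (median -4.20), from -4.99 to -4.05 in Cre GFP bulbs (median -4.39) and from -4.64 to -4.18 with active CRHR1 (median -4.32). The groups overlapped throughout. The change was 0.14 ± 0.16 in the knockout (interval -0.20 to 0.47, adjusted p = 0.668) and 0.07 ± 0.16 with active CRHR1 (interval -0.27 to 0.41, adjusted p = 0.812), each against Cre GFP. Active CRHR1 and knockout bulbs differed by -0.07 ± 0.16 (interval -0.41 to 0.27, adjusted p = 0.764). Intervals of this width leave room for changes as large as those of Sox10 in either comparison with the knockout.

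Frzb, the secreted Wnt antagonist, was lower with active CRHR1 than in the knockout, with Cre GFP bulbs in between. Its level was 2.22, 2.21, 2.21, 2.31 and 2.41 in the knockout. In Cre GFP bulbs it was 1.84, 2.06, 2.01, 2.04 and 2.27. With active CRHR1 it was 1.81, 1.68, 1.96, 1.69 and 1.89. The knockout arrays all lay above the active CRHR1 arrays, and the Cre GFP arrays overlapped both. Knockout and Cre GFP bulbs differed by 0.23 ± 0.08 (interval 0.05 to 0.41, adjusted p = 0.146). Active CRHR1 and Cre GFP bulbs differed by -0.24 ± 0.08 (interval -0.42 to -0.06, adjusted p = 0.0867), and neither change passed. The change from knockout to active CRHR1, -0.47 ± 0.08, did (interval -0.65 to -0.29, adjusted p = 0.00219). Without Cre GFP array 1, which was the lowest of its group, the change with active CRHR1 against Cre GFP was -0.29 and passed (adjusted p = 0.0326).

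Sox10, the glial transcription factor, was higher in the knockout than in either other group. Knockout arrays gave 3.46, 3.38, 3.11, 3.34 and 3.23. Cre GFP arrays gave 3.04, 2.82, 2.92, 3.11 and 3.05, and active CRHR1 arrays 3.03, 2.89, 2.97, 2.91 and 3.15. The lowest knockout array, array 3, lay within the range of the others. The change against Cre GFP was 0.32 ± 0.08 (interval 0.14 to 0.49, adjusted p = 0.0487), just under the threshold. It was lost in 8 of 16 other settings and in 13 of 15 omissions of a single array, with adjusted p up to 0.219, and held without knockout array 3 (0.0301) or active CRHR1 array 5 (0.0464). Active CRHR1 and knockout bulbs differed by -0.31 ± 0.08 (interval -0.49 to -0.14, adjusted p = 0.0152). The change with active CRHR1 against Cre GFP was 0.00071 ± 0.081 (interval -0.17 to 0.17, adjusted p = 0.997), and its sign turned with the scaling.

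Fabp7, the fatty acid binding protein of radial glia, astrocytes and ensheathing glia, was among the brighter probes, with a mean pixel signal between 61961 and 94002 where the brightest spot reached 453460. Its levels were 6.39, 6.46, 6.55, 6.69 and 6.78 in the knockout. They were 6.20, 6.34, 6.52, 6.57 and 6.71 in Cre GFP bulbs and 6.21, 5.99, 6.25, 6.19 and 6.44 with active CRHR1. All groups overlapped, and only array 5 of active CRHR1 reached into the knockout range. The knockout and Cre GFP bulbs differed by 0.10 ± 0.11 (interval -0.13 to 0.34, adjusted p = 0.630), and active CRHR1 and Cre GFP bulbs by -0.25 ± 0.11 (interval -0.49 to -0.02, adjusted p = 0.156). The fall from knockout to active CRHR1, -0.36 ± 0.11, passed (adjusted p = 0.0305). This call was lost in 5 of 15 other settings, with a change of -0.12 under quantile normalization (adjusted p = 0.418). It no longer passed without knockout array 4 or 5 or active CRHR1 array 1 or 2 (adjusted p from 0.0610 to 0.0718).

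S100b, the calcium-binding protein of astrocytes and ensheathing glia, had all knockout arrays above all others. They read 5.57, 5.63, 5.69, 5.73 and 6.18, against 5.31, 5.56, 5.21, 5.22 and 5.31 in Cre GFP bulbs. With active CRHR1 the levels were 4.92, 4.99, 5.12, 5.35 and 5.21. The gap between the lowest knockout array (5.57) and the highest Cre GFP array (5.56) was small. The change of 0.44 ± 0.12 in the knockout against Cre GFP (interval 0.19 to 0.69) missed the threshold (adjusted p = 0.0579) and passed without Cre GFP array 2 (0.50, adjusted p = 0.0440). It also passed in 5 of 16 other settings, with quantile normalization, normexp, slide as a random block, an intensity trend or array weights (adjusted p = 0.0183 to 0.0472), but not with slide as a fixed block (adjusted p = 0.186). Groups without overlap, as for Ngfr and S100b here, were seen for 5.57% of all genes, with the knockout above for 3.16% and below for 2.41%. Against the knockout, S100b fell by 0.64 with active CRHR1 (SE 0.12, interval -0.90 to -0.39, adjusted p = 0.0026), and against Cre GFP the change was -0.21 ± 0.12 (interval -0.46 to 0.05, adjusted p = 0.275). Active CRHR1 arrays lay below the knockout arrays without overlap for 3 of 6 genes, Ngfr, Frzb and S100b, where 18.6% of all genes had no overlap, 11.8% with active CRHR1 below and 6.84% above. Between active CRHR1 and Cre GFP arrays 0 of 6 were without overlap, where 10.4% of all genes were (3.3% above, 7.12% below).

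**Figure D2:**
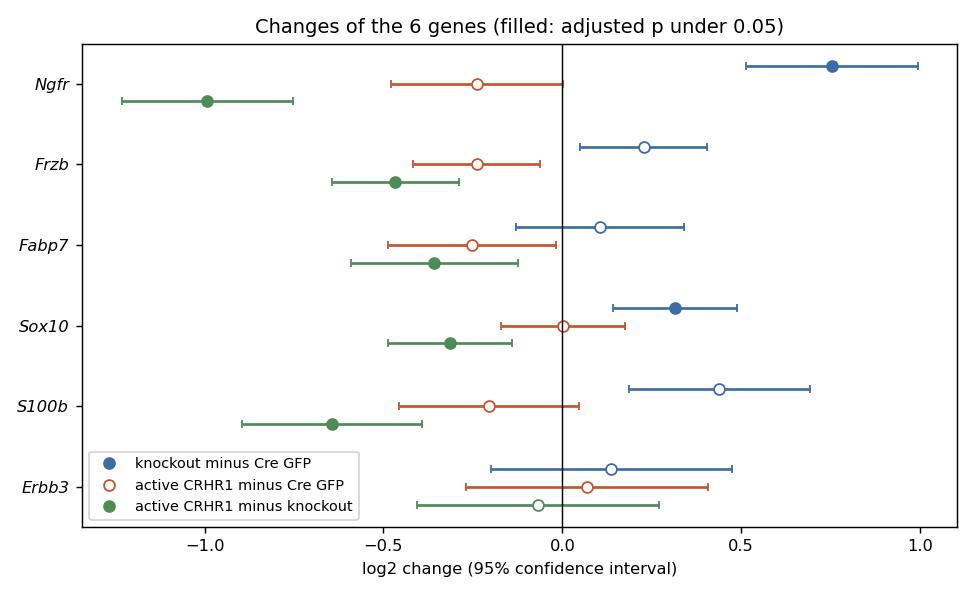
Log2 change (x axis) of the 6 genes in the 3 comparisons, with bars for 95% confidence intervals and filled points for an adjusted p under 0.05. The points for active CRHR1 minus knockout run from -0.99 for Ngfr to -0.07 for Erbb3, and 0 points are filled for active CRHR1 minus Cre GFP.

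The slides bear on these comparisons unequally. Cre GFP arrays, the only group on both slides, were higher on slide 2 (n = 2) than on slide 1 (n = 3) by 0.048 for Ngfr, 0.19 for Frzb, 0.29 for Fabp7, 0.16 for Sox10 and 0.32 for Erbb3, and lower by 0.093 for S100b (difference -0.093). Slide and array number cannot be told apart in these differences, as arrays 1 to 3 were on slide 1 and arrays 4 and 5 on slide 2. Within slide 1 Fabp7 also rose, from 6.20 to 6.52 over Cre GFP arrays 1 to 3. Over knockout arrays 1 to 5, all on slide 1, it rose from 6.39 to 6.78. Active CRHR1 and knockout arrays share no slide, so a fit with slide as a block compares them only through the 5 Cre GFP arrays. In that fit Ngfr (-1.04, adjusted p = 0.0238) and Frzb (-0.66, adjusted p = 0.0300) still passed between active CRHR1 and knockout bulbs. Fabp7 (-0.64, adjusted p = 0.0665), Sox10 (-0.47, adjusted p = 0.0840) and S100b (-0.55, adjusted p = 0.161) did not. In the knockout against Cre GFP, Ngfr passed with the block (0.77, adjusted p = 0.0145) and Sox10 did not (0.38, adjusted p = 0.0607). Of the genes of the lists described next, 27 were called in the knockout against Cre GFP, and 15 of these passed with the block. For active CRHR1 against Cre GFP 10 of 33 did, and for active CRHR1 against the knockout 20 of 72, with the sign of each call kept.

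**Figure D3:**
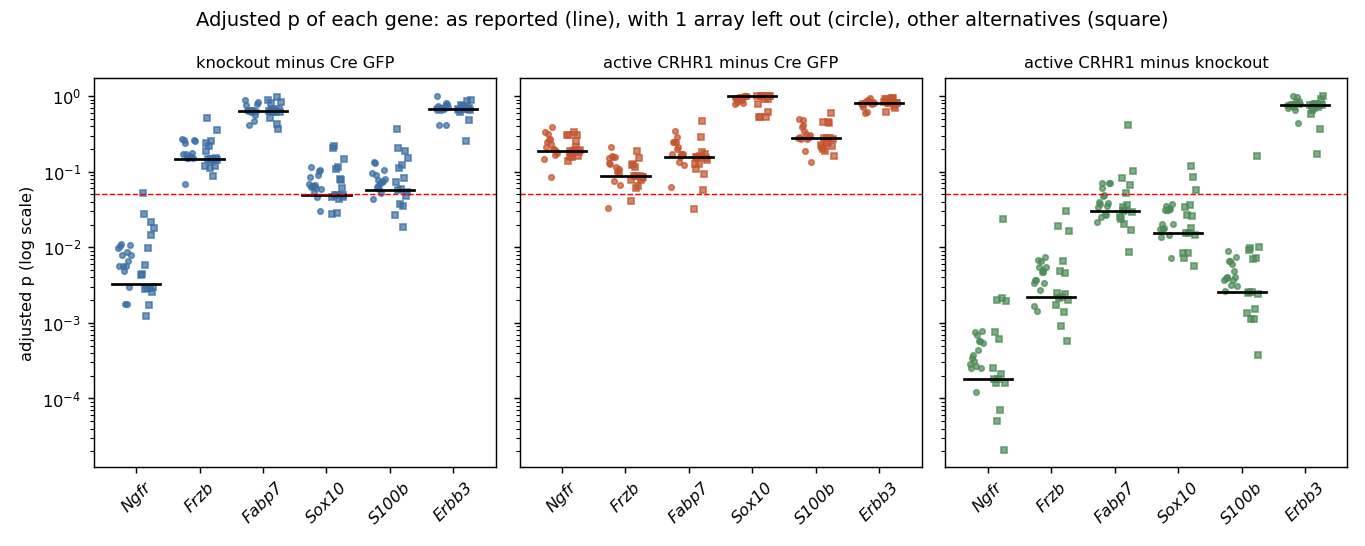
Adjusted p of each gene (y axis, log scale) in the 3 comparisons, with a black line for the value as reported, circles for fits with 1 array left out, squares for the other settings and a dashed line at 0.05. For active CRHR1 minus knockout, Ngfr and Frzb stay below the dashed line in every fit shown, while Sox10 in knockout minus Cre GFP lies on both sides of it.

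The label was checked with other genes of ensheathing glia, which did not all move one way. Npy, Prss56, Mybpc1, Foxd3, Apod, Cdh19, Gfap and Vim were all well above background on all 15 arrays, so that no marker looked at was absent. In RNA of a whole bulb this does not show which cells made these genes. Of these 8, 2 were higher and 0 lower in the knockout than in Cre GFP bulbs (median change 0.096). For this and the following lists, the shares over all genes were 1.97% higher and 1.39% lower in that comparison. They were 3.91% higher and 4.58% lower with active CRHR1 against Cre GFP, and 9.38% higher and 16.2% lower against the knockout. Npy, a neuropeptide that these glia make, rose by 0.53 ± 0.10 (adjusted p = 0.0134), and Prss56, a secreted serine protease, rose by 0.71 ± 0.18 (adjusted p = 0.0442). In the fit with a slide term Npy passed (0.60) and Prss56 did not (0.84, adjusted p = 0.0607). Gfap, the intermediate filament of astrocytes and ensheathing glia, was -0.80 ± 0.21 in the same comparison (adjusted p = 0.0525), with every knockout array below every Cre GFP array.

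With active CRHR1 against Cre GFP, Gfap rose by 0.87 ± 0.21 (adjusted p = 0.0219) and Vim, another filament gene, by 0.42 ± 0.11 (adjusted p = 0.0273). These 2 of 8 were higher and 0 were lower (median -0.14). Between active CRHR1 and knockout bulbs 3 of 8 were lower and 1 higher (median -0.25). Prss56 (-0.76 ± 0.18, adjusted p = 0.0100), Npy (-0.69 ± 0.10, adjusted p = 0.00077) and Foxd3, a neural crest transcription factor (-0.36 ± 0.12, adjusted p = 0.0400), were the lower ones. Gfap was higher by 1.67 ± 0.21 (adjusted p = 0.00033), opposite in sign to S100b and Fabp7, which astrocytes also make. With slide as a block Gfap passed in both comparisons and Npy in the latter, while the calls of Vim, Prss56 and Foxd3 were lost.

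Around Ngfr, 18 of 20 genes of neurotrophin and p75 signalling were tested, and Ntf3 and Lingo1 were too dim. In the knockout against Cre GFP 0 of 18 passed in limma (median 0.04), and 3 had an unadjusted p under 0.05. With active CRHR1 against Cre GFP Ripk2, a kinase that binds the receptor's death domain, was higher by 0.80 ± 0.19 (adjusted p = 0.0204). Its probe was well above background on 4 of 5 active CRHR1 arrays, 2 of 5 Cre GFP arrays and 3 of 5 knockout arrays. It was thus kept for testing only through the group in which it was higher, and its call is not independent of that filter. Rtn4, which codes for the axon growth inhibitor Nogo, was lower (-0.27 ± 0.08, adjusted p = 0.0415). Between active CRHR1 and knockout bulbs 3 of 18 were lower and 0 higher, a share near the 16.2% of all genes that were lower. The 3 were the myelin inhibitors Mag (-0.44 ± 0.12) and Omg (-0.67 ± 0.19) and the proneurotrophin co-receptor Sort1 (-0.30 ± 0.08). Of these calls of the list that of Omg held with slide as a block, and those of Ripk2, Rtn4, Mag and Sort1 were lost.

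Around Erbb3, 15 of 17 genes of neuregulin signalling were tested, without Btc and Ereg. Nrg1, which codes for the ligand of ERBB3, was lower in the knockout (-0.46 ± 0.08, adjusted p = 0.0088) and also with active CRHR1 (-0.28 ± 0.08, adjusted p = 0.0471), each against Cre GFP. In the knockout it was the only gene of the list to pass. With active CRHR1 the list had 2 lower and 0 higher, the other being Bace1, the protease that cuts neuregulin (-0.25 ± 0.06, adjusted p = 0.0235). Against the knockout 4 of 15 were lower with active CRHR1, where 16.2% of all genes were. They were led by Bace1 (-0.33 ± 0.06), the co-receptor Erbb2 (-0.27 ± 0.08) and the ubiquitin ligase Rnf41 (-0.28 ± 0.09), which targets ERBB3. With slide as a block Nrg1 passed in the knockout, and each of the calls with active CRHR1 was lost.

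Around Frzb, 35 of 37 Wnt genes were tested, without Dkk1 and Sost. In the knockout against Cre GFP 3 rose and 0 fell (median 0.12): the antagonist Dkk2 by 0.81 ± 0.14 (adjusted p = 0.0079), and Nkd1 by 0.58 ± 0.12 (adjusted p = 0.0188) and Rnf43 by 0.38 ± 0.09 (adjusted p = 0.0374), which are feedback inhibitors induced by Wnt. With active CRHR1 against Cre GFP 3 fell and 0 rose (median -0.10). Wif1, a secreted Wnt antagonist like Frzb, fell most (-1.12 ± 0.18, adjusted p = 0.0015), followed by the ligand Wnt10a (-0.50 ± 0.11, adjusted p = 0.0146) and the receptor Fzd2 (-0.27 ± 0.06, adjusted p = 0.0199). Between active CRHR1 and knockout bulbs 14 of 35 were lower and 1 higher (median -0.22), in a comparison in which 16.2% of all genes were lower. Nkd1 (-0.71 ± 0.12), Wnt10a (-0.67 ± 0.11) and Fzd2 (-0.38 ± 0.06) led these. With slide as a block Dkk2 and Nkd1 passed in the knockout and Rnf43 did not (adjusted p = 0.0996), Wif1 passed with active CRHR1 against Cre GFP and Wnt10a and Fzd2 did not, and against the knockout only Nkd1 of the list passed.

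Around Sox10, 13 of 14 partners and targets were tested, without Pax3. In the knockout against Cre GFP 3 rose and 0 fell (median 0.14): Ednrb, an endothelin receptor, by 0.54 ± 0.08 (adjusted p = 0.0033), Cntf, a neurotrophic factor of glia, by 0.54 ± 0.08 (adjusted p = 0.0042), and Mbp, a myelin protein, by 0.41 ± 0.10 (adjusted p = 0.0423). Ednrb and Cntf passed with slide as a block too, and Mbp did not (adjusted p = 0.0972). With active CRHR1 against Cre GFP 1 rose, the transcription factor Egr2 (1.27 ± 0.35, adjusted p = 0.0376), and 0 fell. Against the knockout 4 of 13 were lower and 1 higher with active CRHR1, where 16.2% of all genes were lower and 9.38% higher. Cntf (-0.67 ± 0.08), Ednrb (-0.53 ± 0.08) and Mbp (-0.64 ± 0.10) led the lower ones. The slide block ended the call of Egr2 and, against the knockout, all but those of Cntf and Ednrb.

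The relatives of Fabp7 and S100b went several ways. Of 11 fatty acid and retinoid binding proteins 6 were tested, and Fabp1, Fabp2, Fabp6, Fabp9 and Fabp12 were too dim. In the knockout against Cre GFP 0 of 6 passed in limma, with 2 at an unadjusted p under 0.05. Crabp1, a retinoic acid binding protein, fell with active CRHR1 against Cre GFP (-0.82 ± 0.14, adjusted p = 0.0034) and against the knockout (-1.11 ± 0.14), where Fabp5 (-0.45 ± 0.10) and Crabp2 (-0.38 ± 0.12) were lower as well. Of 15 genes, other S100 genes and Ager, which codes for a receptor of S100 proteins, 13 were tested, without S100a14 and S100g. S100a1 (0.53 ± 0.11, adjusted p = 0.0188) and S100a4 (0.90 ± 0.21, adjusted p = 0.0302) were higher in the knockout, and S100a4 (0.83 ± 0.21, adjusted p = 0.0250) and S100a11 (0.51 ± 0.12, adjusted p = 0.0169) were higher with active CRHR1, each against Cre GFP. With slide as a block Crabp1 passed in both comparisons, and the calls of Fabp5, Crabp2 and the S100 genes were lost.

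Markers of other cells that can make these genes were set beside them. Of 10 oligodendrocyte genes 0 passed in limma in the knockout against Cre GFP (median 0.14, with 2 at an unadjusted p under 0.05), while with active CRHR1 6 of 10 were lower than in the knockout (median -0.47), led by the myelin genes Mog (-0.73 ± 0.14), Cnp (-0.48 ± 0.10) and Mag. Against Cre GFP 1 of 10 was lower with active CRHR1, Mobp (-0.82, adjusted p = 0.0342), which also passed with slide as a block (-1.17, adjusted p = 0.0256). The summed level of the oligodendrocyte genes, log2 of the summed signals on the same scale, was 5.86 to 6.41 in the knockout, 5.87 to 6.33 in Cre GFP bulbs and 5.37 to 5.98 with active CRHR1. Of 9 precursor genes 2 were higher and 1 lower in the knockout against Cre GFP, C1ql1 (0.56 ± 0.11), Bmp4 (0.32 ± 0.08) and Neu4 (-0.42 ± 0.11). With active CRHR1 5 of 9 were lower than in Cre GFP bulbs, led by C1ql1 (-0.49 ± 0.11), Lhfpl3 (-0.48 ± 0.13) and Olig1 (-0.23 ± 0.06), and 0 of these 5 passed once slide was a block (adjusted p = 0.0554 to 0.192). Of the other calls named for these lists, those of Mog against the knockout and C1ql1 in the knockout held with the block, and those of Cnp, Mag, Bmp4 and Neu4 did not. Summed levels were 5.23 to 5.41, 4.97 to 5.37 and 4.78 to 5.05 in the order knockout, Cre GFP, active CRHR1.

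Of 11 astrocyte genes 2 were higher in the knockout than in Cre GFP bulbs, the glutamate transporter Slc1a3 (0.37 ± 0.08, adjusted p = 0.0239) and the water channel Aqp4 (0.34 ± 0.08, adjusted p = 0.0412), whose call was lost with arrays centred on their median. Neither passed once slide was a block (adjusted p = 0.0519 and 0.0588). With active CRHR1 3 of 11 were lower than in the knockout, where 16.2% of all genes were. These were Slc1a3 (-0.55 ± 0.08), Acsbg1 (-0.26 ± 0.05) and Slc4a4 (-0.38 ± 0.12), and Slc1a3 alone of these passed with the block. Against Cre GFP 1 of 11 was lower with active CRHR1, Gjb6 (-0.35 ± 0.08, adjusted p = 0.0197), and its call was lost with the block (adjusted p = 0.0677). Summed astrocyte levels were 7.29 to 7.40, 7.19 to 7.36 and 7.08 to 7.20 in the order knockout, Cre GFP, active CRHR1. Of 6 radial glia and stem cell genes Nes (0.49 ± 0.09, adjusted p = 0.0110) and Hes5 (0.39 ± 0.08, adjusted p = 0.0228) rose in the knockout, Hes5 not with the block, and summed levels were 5.94 to 6.24, 5.55 to 5.82 and 5.48 to 5.70. Of 8 Schwann cell genes 0 passed in limma in the knockout against Cre GFP (median -0.14, with 2 at an unadjusted p under 0.05), and summed levels were 4.40 to 4.81, 4.23 to 4.56 and 4.14 to 4.29. With active CRHR1 Gap43 was lower (-0.34) and Egr2 higher against Cre GFP. Against the knockout 2 of 8 were lower and 0 higher, Gap43 (-0.47, adjusted p = 0.0035) and Pmp22 (-0.31, adjusted p = 0.0198). With slide as a block all these Schwann cell calls were lost (adjusted p = 0.0879 to 0.237). Every gene of these 5 lists was well above background on all 15 arrays, so that no marker was at 0, and the part of these cells in the changes of the 6 genes was not tested.

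Most pericyte and smooth muscle genes were higher in the knockout. Of 9 pericyte and smooth muscle genes 6 were higher than in Cre GFP bulbs and 0 lower (median 0.47), led by Abcc9 (0.95 ± 0.11), Kcnj8 (0.96 ± 0.13) and Rgs5 (1.03 ± 0.15), and of the 6 calls only that of Higd1b was lost with slide as a block. With active CRHR1 8 of 9 means were also higher than in Cre GFP bulbs (median 0.20). There 1 gene passed, Kcnj8 (0.67, adjusted p = 0.0064, lost with the block). Against the knockout 5 of 9 were lower with active CRHR1 and 0 higher (median -0.29), where 16.2% of all genes were lower. The summed level of the 9 genes, which the brightest lead, was 5.78 to 6.07 in the knockout, 5.35 to 5.57 in Cre GFP bulbs and 5.13 to 5.43 with active CRHR1. Of 8 genes of meninges and fibroblasts Lum (0.72 ± 0.11) and Col3a1 (0.77 ± 0.17) were higher in the knockout than in Cre GFP bulbs (median 0.59). Their summed levels were 6.04 to 6.55, 5.39 to 6.01 and 5.35 to 5.94 in the order knockout, Cre GFP, active CRHR1. The nerve layer lies at the bulb's surface under the meninges, and how much surface tissue each sample held was not tested. Of 10 microglial genes 0 passed in limma in the knockout against Cre GFP, with 2 at an unadjusted p under 0.05, though all 10 means were higher there (median 0.27). With active CRHR1 8 of 10 rose against Cre GFP (median 0.72), led by C1qa (1.56 ± 0.19), C1qb (1.49 ± 0.18) and Aif1 (1.89 ± 0.24), with summed levels of 6.34 to 6.82, 6.12 to 6.54 and 6.76 to 7.35. P2ry12, a purinergic receptor of microglia, was at -0.27 ± 0.12 (adjusted p = 0.170), and was lower than in the knockout (-0.54 ± 0.12, adjusted p = 0.0076, lost with the block). Against Cre GFP the calls of Csf1r, Trem2 and Tmem119 were lost with slide as a block. Every gene of these 3 lists was well above background on all 15 arrays, and the part of these cells in the changes of the 6 genes was not tested.

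Sensory neurons, whose axons the ensheathing glia wrap, had few changes that passed. Of 10 of their genes 0 passed in limma against Cre GFP in either group (1 in each at an unadjusted p under 0.05). All 10 means were lower with active CRHR1 than in Cre GFP bulbs (median -0.20, against -0.065 over all genes). A single gene, the olfactory G protein gene Gnal, was lower with active CRHR1 than in the knockout (-0.27 ± 0.09, adjusted p = 0.0458, lost with slide as a block). Summed levels were 6.96 to 7.73 in the knockout, 7.19 to 7.46 in Cre GFP bulbs and 6.83 to 7.44 with active CRHR1, and the 3 ranges overlapped. For the 6 ensheathing glia genes together the same sum was 7.22 to 7.63, 6.98 to 7.31 and 6.74 to 7.10 in the same order, a sum that the brightest probes lead. Of 9 granule cell genes 1 was lower in the knockout, Etv1 (-0.34 ± 0.07), and 3 were lower with active CRHR1, Meis2 (-0.30 ± 0.07), Pcp4 (-0.47 ± 0.12) and Etv1 (-0.26 ± 0.07), each against Cre GFP. Of these 4 calls that of Etv1 with active CRHR1 held with the block. All 9 granule cell means were lower with active CRHR1 than in Cre GFP bulbs (median -0.25). Against Cre GFP 0 of 5 mitral and tufted cell genes passed in limma in either group, with 0 and 1 at an unadjusted p under 0.05 in the knockout and with active CRHR1. The numbers for 9 endothelial genes were 0, with 1 and 2.

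**Figure D4:**
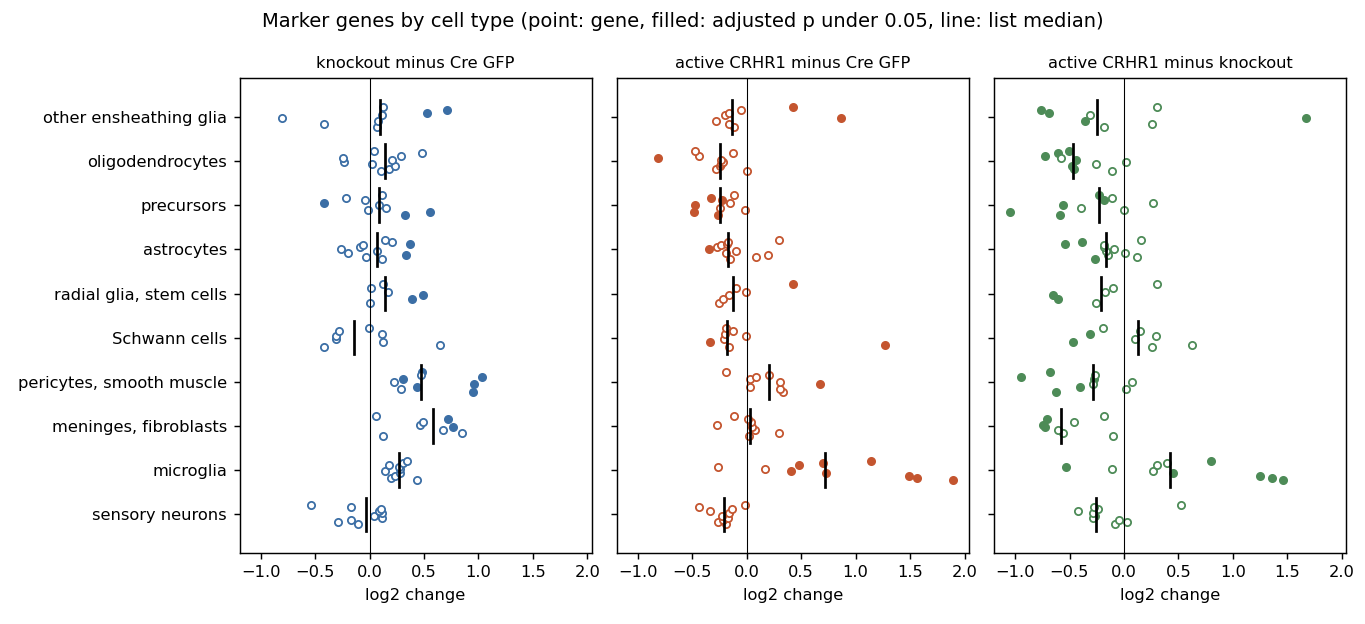
Log2 change (x axis) of marker genes in 10 lists of cell types (rows) in the 3 comparisons, with a point per gene, filled for an adjusted p under 0.05, and a black line at the list median. Pericyte genes lie to the right of 0 in the knockout (median 0.47), 9 of 10 microglial genes to the right with active CRHR1 against Cre GFP (median 0.72; P2ry12 lies to the left at -0.27), and the other ensheathing glia genes on both sides.

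The promoters of the 3 genes whose active CRHR1 arrays all lay below the knockout arrays are given as RefSeq has them in build GRCm38.p6, 250 bases up to the annotated start. These coordinates are of another build than those of the probes. The set of promoter sequences used here held 4 of the 6 genes, so that Sox10 and Erbb3 are named only. The Ngfr promoter is chr11:95587699-95587948 on the minus strand, that of Frzb chr2:80447397-80447646 on the minus strand and that of S100b chr10:76253586-76253835 on the plus strand. Capitals mark GC boxes (GGGCGG or its complement CCGCCC) and CCAAT boxes (CCAAT or ATTGG).
Ngfr: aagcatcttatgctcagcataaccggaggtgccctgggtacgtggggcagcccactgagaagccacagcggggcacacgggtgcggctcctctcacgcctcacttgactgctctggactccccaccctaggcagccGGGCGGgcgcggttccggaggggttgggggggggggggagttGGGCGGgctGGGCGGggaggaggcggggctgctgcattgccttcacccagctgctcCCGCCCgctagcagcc
Frzb: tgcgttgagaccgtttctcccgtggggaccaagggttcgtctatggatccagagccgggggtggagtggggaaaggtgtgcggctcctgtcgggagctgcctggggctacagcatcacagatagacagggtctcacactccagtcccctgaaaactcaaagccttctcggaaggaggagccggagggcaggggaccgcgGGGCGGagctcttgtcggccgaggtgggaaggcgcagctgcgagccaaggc
S100b: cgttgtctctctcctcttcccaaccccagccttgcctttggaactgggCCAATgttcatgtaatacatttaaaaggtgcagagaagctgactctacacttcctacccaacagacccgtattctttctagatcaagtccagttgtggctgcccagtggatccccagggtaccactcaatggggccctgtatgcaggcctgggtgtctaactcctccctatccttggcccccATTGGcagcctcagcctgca
The Ngfr window was rich in GC (70.4%) with 4 GC boxes, and the Frzb window (64.4%) had 1, where 32.7% of 32851 promoter windows of the same length held at least 1. The S100b window (53.6%) and the Fabp7 window (54.8%) had 2 CCAAT boxes each and 0 GC boxes, and 33.8% of all windows held a CCAAT box. The median GC content of all windows was 52.4%. The 4 windows held 0 copies, on either strand, of the SOX motifs ACAAAG (in 16.5% of all windows) and ACAATG (10.7%), of the cAMP response element TGACGTCA (1.55%) or its shorter core TGACG (17.8%), and of TATAAA (12.4%). These are counts of letters in a window and show no binding.

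The genes whose profile over the 15 arrays came closest to each member were found by the root mean square difference of centred log2 levels, among 16563 genes with a symbol. For Ngfr they were Ly6g6e (0.151), Acot5 (0.151) and Fxyd6 (0.163), and no other member came closer than S100b (0.269). For Frzb they were Dpy19l3 (0.081), Golga7 (0.087) and Cemip2 (0.088), and for Fabp7 Sash1 (0.088), Gsn (0.090) and Tax1bp3 (0.090). Frzb and Fabp7 were each other's nearest member (0.109). For Sox10 they were Irs3 (0.071), Cilk1 (0.088) and Txndc5 (0.090), for S100b Mrpl33 (0.098), Cops9 (0.109) and Tmem160 (0.109), and for Erbb3 Grk5 (0.170), Arl10 (0.173) and Gm831 (0.174). Ranked by this difference among the 16563 genes, the nearest other member was at 66 for Frzb, 21 for Fabp7 and 197 for Ngfr. It was at 1065 for Sox10, 716 for S100b and 49 for Erbb3. Beside these values, the root mean square of Erbb3 about its own mean was 0.240, of Ngfr 0.452 and of S100b 0.318. That of Frzb was 0.221, of Fabp7 0.216 and of Sox10 0.184.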

How the data were processed

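RNA of 15 bulbs was measured on 1-colour Agilent arrays, 1 per mouse. Per the labels' protocols, TRIzol-extracted RNA was freed of DNA, and 100 ng of it was amplified and labelled with Cy3. The deposited scanner files give spot intensity, background-subtracted and detrended within each array by Agilent Feature Extraction 10.7.3.1, per the file headers, with no scaling between arrays. The authors' series values hold that intensity over the median of the same array, controls left out (found by comparing both), with column medians of 0.899 to 0.935.

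From the scanner files, control spots and outlier flags were left out (0 spots were saturated), the array's 75th percentile was subtracted from the log2 signal, and spots of a probe were averaged. Probes well above background on at least 4 of 5 arrays of any group were kept (33968 of 55681). A gene was read at its kept probe of highest mean, with RefSeq symbols matched through accessions for 27598 probes. Of 27337 genes tested 16573 had such a symbol and 5262 several kept probes. The 3 comparisons were fitted together by lmFit and eBayes of limma 3.58.1 (R 4.3.3) on all 15 arrays, with Benjamini-Hochberg adjustment over all genes. Precision is limited by the number of arrays. Lists were described by counts and medians, with no list test.

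The members and gene lists were chosen with earlier results of these data known. The text names the 6 members, up to 3 genes of smallest p per list and comparison among those past the threshold, and the 3 nearest profiles of each member. Not every gene that met this rule is named, as not every list is described in all 3 comparisons. Other ensheathing glia genes of the list are all named, some genes of the lists are not reported here and were left out of their counts, and single genes outside the rule (Gfap in the knockout, Foxd3) were chosen after their values were seen. Alternatives were quantile normalization, median centring, the authors' scaled values, normexp (offset 50), another filter or choice of probe, separate fits of 2 groups, slide as a block, an intensity trend, array weights, a replicate block and the omission of single arrays. The steps were tested on simulated data. pandas 2.3.3, numpy 2.4.6 and matplotlib 3.10.9 were used in Python 3.11.15, and the R package data.table in version 1.17.8.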

Additional observations from a re-analysis of the deposited data

Results flagged for a closer look

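S100b on knockout array 5 stood at 6.18, with the next highest knockout array at 5.73, so that the gap took 0.735 of the group's range, above Dixon's 95% critical value for 5 samples. S100b on Cre GFP array 2 stood at 5.56 with the next at 5.31, a share of 0.716. Of 18 groups tested (6 genes in 3 groups) 2 met this rule, where chance flags about 1 in 20.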

How the results depend on the processing

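Between active CRHR1 and knockout bulbs the calls of Ngfr and Frzb held in all 15 other settings and all 15 omissions of an array, and that of S100b in all but the slide block (adjusted p = 0.161). The call of Ngfr in the knockout against Cre GFP held in 15 of 16 settings and all 15 omissions. The number of the 6 genes called in the knockout against Cre GFP, 2 as reported, was 1 with the authors' scaled values, no filter on dim probes, a fit of the 2 groups, slide as a fixed block, the replicate block and without knockout arrays 2 and 5, and 0 within slide 1. It was 3, with S100b added, with normexp, slide as a random block, an intensity trend and array weights, and S100b took the place of Sox10 with quantile normalization. It was 1 to 2 with single arrays left out. That for active CRHR1 against Cre GFP, 0 as reported, was 2 with array weights (Frzb and Fabp7) and 0 to 1 with single arrays left out. That for active CRHR1 against knockout, 5 as reported, was 3 with quantile normalization, 2 with slide as a fixed block, 3 without knockout arrays 2 and 5, and 4 to 5 with single arrays left out. Of the 15 other settings, the call of Fabp7 was lost in 5, that of Sox10 in 3 and that of S100b in 1. The settings named here are thus not all of those that lost Fabp7. The omission of knockout arrays 2 and 5 was chosen after the data were seen. Array 2 had the most spots above background (67.8%), and array 5 had the lowest agreement with its group (0.985). The cause of these differences was not tested. Over all genes, most same-numbered arrays did not pair, with r from -0.219 to 0.405 and 3 of 15 pairs over 0.1. The highest r was that of array 5 in the knockout and Cre GFP groups. Single genes could still follow the array number. Fabp7 rose at each step from array 1 to 5 in the knockout (6.39 to 6.78) and in Cre GFP bulbs (6.20 to 6.71). With active CRHR1 it did not, and the cause was not tested. The replicate block ended the call of Sox10 in the knockout against Cre GFP (adjusted p = 0.0764) and no other call of the 6 genes, and over all genes the calls went from 917 to 562, from 2320 to 1536 and from 7004 to 5988.

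Small values turned sign. Fabp7 in the knockout was -0.0049 with quantile normalization, against Cre GFP. With active CRHR1 against Cre GFP, Sox10 was -0.037 with median centring, -0.098 with the authors' scaled values, -0.093 with slide as a block or within slide 2, -0.0013 with array weights and -0.042 to 0.032 with single arrays left out. Erbb3 was -0.024 with quantile normalization, -0.030 with the authors' scaled values, -0.12 with slide as a block or within slide 2, and -0.074 to 0.16 with single arrays left out. Erbb3 was -0.0052 to 0.23 in the knockout against Cre GFP and -0.16 to 0.0044 between active CRHR1 and knockout with single arrays left out.

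Over all genes, 917 called in the knockout against Cre GFP became 114 to 1776 in the other settings and 431 to 953 with single arrays left out. For active CRHR1 against Cre GFP 2320 became 328 to 5894 and 1181 to 3600, and for active CRHR1 against knockout 7004 became 679 to 10628 and 4143 to 7902. With the authors' scaled values 33.4% of the calls were higher in the knockout than in Cre GFP bulbs, against 58.7%, and 47.7% with active CRHR1 against the knockout, against 36.6%. For the latter the share was 25.3% with normexp. Of the other list genes called, 27, 33 and 72 in the 3 comparisons, 25, 33 and 70 were also called with median centring. Erbb3 is the gene most limited by signal over background.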
